A study of Mus musculus with 4 samples.

Results

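CD8α-bearing αβ T cells without CD8β were sought among immune cells of mouse small-intestinal crypts, in 5′ single-cell RNA libraries of cells sorted for CD45, the surface protein shared by all white blood cells. A barcode that showed 300 genes or more, with mitochondrial UMIs (unique molecular identifiers, each counting 1 captured RNA molecule) no higher than 10%, was taken into the gate when it held at least 1 UMI of a CD3 gene (Cd3e, Cd3d or Cd3g), of Cd8a, of Trac, and of Trbc1 or Trbc2, and 0 UMIs of Trdc, Cd8b1, Cd4, Cd79a and Siglech. The gate held 6278 of 68260 barcodes: 1441 and 1356 in cystine replicates 1 and 2, and 1518 and 1963 in control replicates 1 and 2. The cystine samples came from male mice fed extra cystine, which is cysteine in its paired, oxidised form (the protocol text speaks of a high-cysteine diet), and the control samples from male mice on control diet, with 2 samples a diet. The sample titles gave the diet, since the treatment label reads Control for all 4 samples. No label gave strain or age, or said whether a sample was 1 mouse or a pool. The p-values for diet within a gate or for shares therefore measure only the spread between these 4 samples, which may be technical. Those for differences between gates, and for differences of the diet effect, measure only how far the gate difference varied between these libraries, which may be technical too.

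Natural intraepithelial T cells are lymphocytes of the gut lining that are selected in the thymus on self-antigen and settle early between epithelial cells. They carry the CD8αα homodimer and either an αβ or a γδ T cell receptor, signal partly through the Fc receptor γ chain (Fcer1g) beside CD3ζ (Cd247), depend on IL-15 through the IL-2 receptor β chain (Il2rb), and bear natural killer receptors of the Ly49 family (Klra genes), which read MHC class I. Conventional CD8αβ T cells, which are primed in lymphoid tissue before they enter the epithelium, instead carry Thy1, CD5, CD2 and CD28.

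The Ly49 genes are close copies of each other, and a 5′ library reads near the start of a transcript, so likeness there could bear on Klra counts. The first 30 transcribed bases of 4 Klra genes are shown, 5′ to 3′ on the minus strand of chromosome 6 (RefSeq, build GRCm38.p6), with the run of 8 letters that all 4 share in capitals:
Klra5 (chr6:129913195-129913224): gaaactcgtAGGGGATAtagaccagaaaac
Klra7 (chr6:130233293-130233322): ggagacacttAGGGGATAtcaaccagaaaa
Klra8 (chr6:130129869-130129898): tttcttcttggagcctcttAGGGGATAcag
Klra4 (chr6:130067242-130067271): ctttcttcttggagcctctaAGGGGATAca
The same 8 letters occurred in the first 30 transcribed bases of 10 of 32851 RefSeq starts (0.0304%), and Klra5 and Klra7 shared a run of 10 letters. The 8 letters were in 4 of the 11 Klra genes with a start region. Whether reads were confused between copies was not tested, and a shared run this short does not show it. Counts of single Ly49 genes may still be uncertain, so the family is also given as a whole.

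The start regions of 3 genes that were higher in the gated cells than in CD8αβ T cells are shown from 250 bases before to 50 bases after the transcript start (RefSeq, GRCm38.p6, minus strand of each chromosome), with matches to the core letters of the RUNX motif, TGTGGT or its reverse complement ACCACA on either strand, in capitals. RUNX factors are known for CD8-lineage genes.
Fcer1g (chr1:171234300-171234599): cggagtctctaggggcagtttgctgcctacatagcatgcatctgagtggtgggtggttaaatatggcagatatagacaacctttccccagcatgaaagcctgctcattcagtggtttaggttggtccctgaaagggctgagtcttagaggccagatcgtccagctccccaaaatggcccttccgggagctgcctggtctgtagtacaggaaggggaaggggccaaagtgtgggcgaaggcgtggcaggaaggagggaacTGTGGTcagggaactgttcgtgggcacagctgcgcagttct
Klra5 (chr6:129913175-129913474): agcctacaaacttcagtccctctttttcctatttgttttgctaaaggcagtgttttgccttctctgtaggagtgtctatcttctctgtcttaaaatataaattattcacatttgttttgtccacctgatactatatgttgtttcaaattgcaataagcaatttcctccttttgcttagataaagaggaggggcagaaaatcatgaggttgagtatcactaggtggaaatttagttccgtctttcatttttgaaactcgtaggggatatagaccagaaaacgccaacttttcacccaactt
Klra1 (chr6:130386825-130387124): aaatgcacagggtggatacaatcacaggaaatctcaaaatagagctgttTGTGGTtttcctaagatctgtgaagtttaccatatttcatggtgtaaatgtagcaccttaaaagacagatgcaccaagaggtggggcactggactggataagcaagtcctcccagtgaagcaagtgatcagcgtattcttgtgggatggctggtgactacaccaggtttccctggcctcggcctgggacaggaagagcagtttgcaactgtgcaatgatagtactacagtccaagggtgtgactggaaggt
Fcer1g held 1 match, first base 10 of the transcript, and Klra1 held 1, starting 201 bases before the start, while Klra5 held 0. The letters occurred in 5506 of 32851 start regions of this length (16.8%) and in 1 of 13 Klra start regions, which is a description of letters only.

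Gates for CD8αβ and γδ T cells were set on the same libraries for comparison. CD8αβ T cells passed the same conditions with at least 1 UMI of Cd8b1 in place of 0 and numbered 264 and 289 in cystine samples and 142 and 134 in control samples. γδ T cells had at least 1 UMI of a CD3 gene, of Cd8a and of Trdc and 0 of Trac, Cd8b1, Cd4, Cd79a and Siglech, with no condition on Trbc1 or Trbc2, and numbered 1867 and 2074 in cystine samples and 2548 and 2200 in control samples. Gated cells had a median of 1571 and 1942 UMIs in cystine replicates 1 and 2, and 1596 and 1950 in control replicates 1 and 2. For CD8αβ T cells the medians were 1521.5 and 1948 in cystine samples and 2116.5 and 2275.5 in control samples. For γδ T cells they were 1402 and 1506 in cystine samples and 1372.5 and 1656.5 in control samples. Shares of cells with a UMI are at these unequal depths unless said to be thinned or at equal depth. Their summed UMIs totalled 2535298 and 2830812 in cystine samples, and 2729819 and 4235235 in control samples. The libraries shared between 334 and 451 filtered barcodes a pair, and between 1 and 11 gated barcodes. Control replicate 2 stood apart in γδ transcripts and Gzmk, and calls that change without it are given beside the share, the diet calls and the differences of the diet effect.

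The markers named for natural cells were present. Fcer1g had a UMI in 95.8% and 95.2% of gated cells in cystine replicates 1 and 2, and in 94.8% and 93.0% in control replicates 1 and 2. In CD8αβ T cells the shares were 42.0% and 35.3% in cystine samples and 54.9% and 57.5% in control samples. In barcodes with Cd79a and no CD3 UMI, B cells that should lack Fcer1g, they were 14.0% and 9.29% in cystine samples and 12.4% and 2.02% in control samples, at median depths between 1099.5 and 1289.5 UMIs. Gated cells were above that background in every library. Il2rb had a UMI in 50.8% and 55.3% of gated cells in cystine samples and in 45.9% and 50.0% in control samples, and Klra5 in 17.9% and 14.7% in cystine samples and in 10.7% and 7.85% in control samples. Thy1 was found in 5.76% and 7.23% of gated cells in cystine samples and in 7.71% and 6.98% in control samples, against 53.8% and 50.2% of CD8αβ T cells in cystine samples and 41.5% and 41.8% in control samples.

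The receptor transcripts bore out the αβ identity only in part. Variable segments of γ or δ chains (any Tcrg-V or Trdv) were found in 61.5% and 63.3% of gated cells in cystine samples and in 68.0% and 78.9% in control samples. The same segments were found in 75.0% and 74.5% of γδ T cells in cystine samples and in 74.7% and 83.6% in control samples, and in at most 8.82% of the B cells of any library. CD8αβ T cells held them in 37.5% and 43.9% of cells in cystine samples and in 55.6% and 62.7% in control samples. These segments were thus common in every T cell gate. Variable segments of β chains (any Trbv), which a rearranged β chain carries, were found in 54.3% and 53.6% of gated cells in cystine samples and in 47.4% and 40.2% in control samples. γδ T cells held them in 21.1% to 23.9% of cells, and CD8αβ T cells in 71.6% to 90.0%. The gate conditions use related genes (Trac, Trbc1, Trbc2 and Trdc), so these shares describe the gate and are no test.

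Trac and Trdc UMIs also often occurred in the same barcodes of these libraries. Among barcodes with CD3, Cd8a and Trdc UMIs, 46.5% and 49.2% in cystine samples and 49.2% and 58.8% in control samples held a Trac UMI. Among barcodes with CD3, Cd8a, Trac and Trbc UMIs, 36.5% and 43.3% in cystine samples and 45.4% and 48.2% in control samples held a Trdc UMI. Whether gated cells include γδ T cells whose Trdc was not captured was not tested. The gated cells are called by their gate below. Some results are also given for the subset of them that held a Trbv and no Tcrg-V or Trdv UMI, chosen after seeing the data. This subset held 366 and 302 cells in cystine samples and 271 and 270 in control samples.

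**Figure D1:**
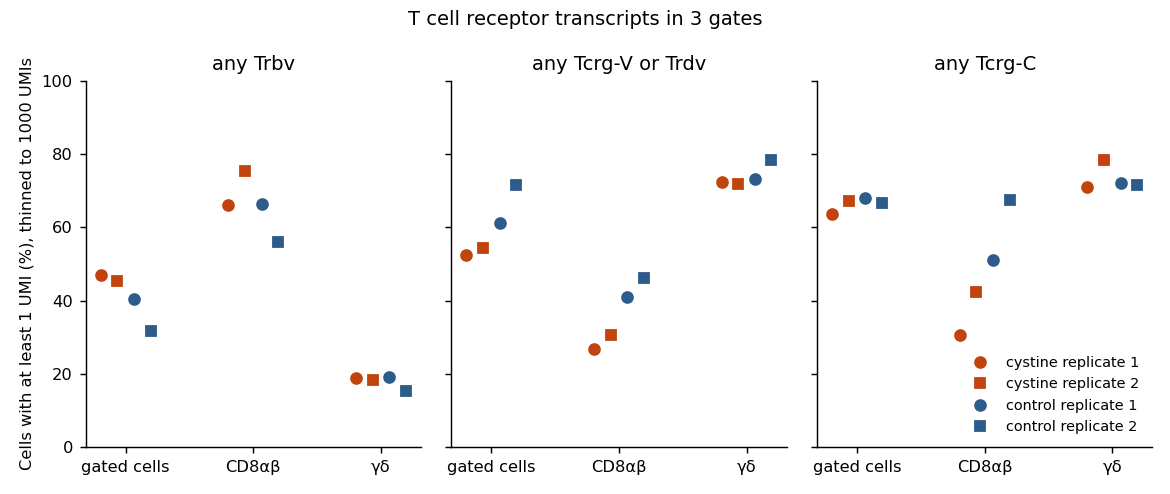
Share of cells with at least 1 UMI of a β variable segment (left), of a γ or δ variable segment (middle) and of a γ constant gene (right), after thinning each barcode to 1000 UMIs, in 3 gates (x axis); each point is 1 library. At equal depth, γ or δ segments were in 52.5% and 54.4% of gated cells in cystine replicates 1 and 2 and in 61.1% and 71.6% in control replicates 1 and 2, and β segments lay between the CD8αβ and γδ gates in every library.

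The plot of receptor transcripts at equal depth keeps the order of the 3 gates for β segments. Among gated cells with a Trbv UMI, Trbv16 was in 16.9% and 15.4% in cystine samples and in 14.3% and 15.1% in control samples, the leading Trbv segment in 3 of the 4 libraries. In CD8αβ T cells with a Trbv UMI it was in 12.2% and 12.7% in cystine samples and in 9.01% and 12.4% in control samples.

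At the Cd8b1 threshold of the gate, cells with 1 Cd8b1 UMI, just outside the gate, held Fcer1g in 47.9% and 51.0% of cases in cystine samples and in 80.9% and 84.6% in control samples. With 2 or more Cd8b1 UMIs the shares were 38.8% and 27.5% in cystine samples and 42.1% and 40.2% in control samples. Cells with 1 Cd8b1 UMI numbered 94 and 96 in cystine samples and 47 and 52 in control samples, and these values describe the edge of the gate, with no test. Of the gated cells, 341 held no Fcer1g UMI. Thy1 was in 31.7% and 46.2% of these in cystine samples and in 27.8% and 24.1% in control samples, against 4.63% and 5.27% of gated cells with Fcer1g in cystine samples and 6.60% and 5.70% in control samples. Tyrobp, which encodes the adaptor DAP12, was in 30% and 16.9% of gated cells without Fcer1g in cystine samples and in 26.6% and 10.9% in control samples, against 89.1% and 85.8% of those with it in cystine samples and 77.6% and 73.5% in control samples. Gated cells without Fcer1g were shallower, with a median of 1067.5 and 1393 UMIs in cystine samples and 1258 and 1658 in control samples, against 1597 and 1960.0 UMIs in cystine samples and 1609 and 1970.0 in control samples for those with it, and these shares have no test.

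Against CD8αβ T cells of the same libraries, the gated cells were higher in Fcer1g and Tyrobp, in Ly49 genes and most other natural killer receptors called, and in granzymes A and B, and lower in the surface genes of conventional T cells. Of 9413 genes tested, 932 (9.9%) passed an adjusted p of 0.05 in edgeR's quasi-likelihood test with sample as a block, 421 higher (4.47%) and 511 lower (5.43%). The values below are CPM, UMIs of a gene scaled to a common library size with TMM factors, summed over the cells of a library and given for cystine replicates 1 and 2 and then control replicates 1 and 2. All fold changes are gated cells over CD8αβ T cells.

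Fcer1g, the Fc receptor γ chain, was at 3898, 4015, 3647 and 3826 CPM in gated cells, against 1427, 1167, 1367 and 1931 CPM in CD8αβ T cells. No values overlapped, and the log2 fold change was 1.41 (SE 0.07, adjusted p = 4.60e-14). Tyrobp was at 3377, 3015, 2429 and 2480.5 CPM in gated cells, against 1279, 1049, 998 and 977 CPM in CD8αβ T cells (log2 1.39, SE 0.05). Cd247, the CD3ζ chain that Fcer1g can stand in for, was at 171, 179, 194 and 238 CPM in gated cells, against 240.2, 258, 207 and 217 CPM in CD8αβ T cells, and did not pass (log2 -0.27, adjusted p = 0.109). Lat, the adaptor that links the receptor to downstream kinases, was at 256, 266, 327 and 378 CPM in gated cells, against 1127, 1129.8, 727 and 784 CPM in CD8αβ T cells (log2 -1.64, SE 0.12). The adaptor genes Sh2d1a (log2 -2.75), Lcp2 (log2 -0.28) and Hcst (log2 -0.27) were lower as well. Of 23 genes of the receptor complex and its proximal signalling, 8 were higher and 7 lower, with a median log2 of 0.06 beside 0.01 over all genes.

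Ly49 genes were higher as a family, with 4 of the 5 tested called and all 4 higher. Klra5 was at 189, 133, 104 and 73.8 CPM in gated cells, against 69.8, 46.6, 48.7 and 29.7 CPM in CD8αβ T cells (log2 1.38, SE 0.15, adjusted p = 8.06e-08). Each library's gated cells stood above its own CD8αβ T cells. Klra1 had 67 UMIs in gated cells and 0 in CD8αβ T cells of any library, which makes it at least 3.30-fold higher when set against 3 counts over all CD8αβ T cells. Among the related NK lectins, Klrb1a was higher by 1.47 on the log2 scale and Klri1 by 1.86. Of 16 tested NK lectin and related receptors, 9 were higher and 3 lower, with a median log2 of 0.89. Cd160, a receptor for HVEM, was 1 of the 3 lower ones (491, 639, 602 and 595 CPM in gated cells, against 682, 799, 776 and 680.2 CPM in CD8αβ T cells, log2 -0.34). No Klra UMI was found in 78.4% and 79.0% of gated cells in cystine samples and in 81.5% and 84.6% in control samples, and 2 or more different Klra genes in 1.73% and 1.99% in cystine samples and in 3.43% and 1.17% in control samples.

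The surface genes of conventional T cells were lower for the most part: of 13 tested, 10 were lower and 0 higher, with a median log2 of -2.88. Cd5, which dampens receptor signals, was at 8.27, 9.16, 5.0 and 2.21 CPM in gated cells, against 125, 149, 119 and 77.2 CPM in CD8αβ T cells (log2 -4.27, SE 0.20, adjusted p = 6.13e-15). Thy1 was at 45.5, 56.0, 58.6 and 55.6 CPM in gated cells, against 474, 454, 359 and 306 CPM in CD8αβ T cells (log2 -2.88, SE 0.12). For both genes every value in gated cells lay below every value in CD8αβ T cells. Cd6, a relative of Cd5, fell by 3.91 on the log2 scale, the stem cell antigen gene Ly6a by 3.72, the costimulator Cd28 by 3.17 and the IL-7 receptor gene Il7r by 3.08.

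**Figure D2:**
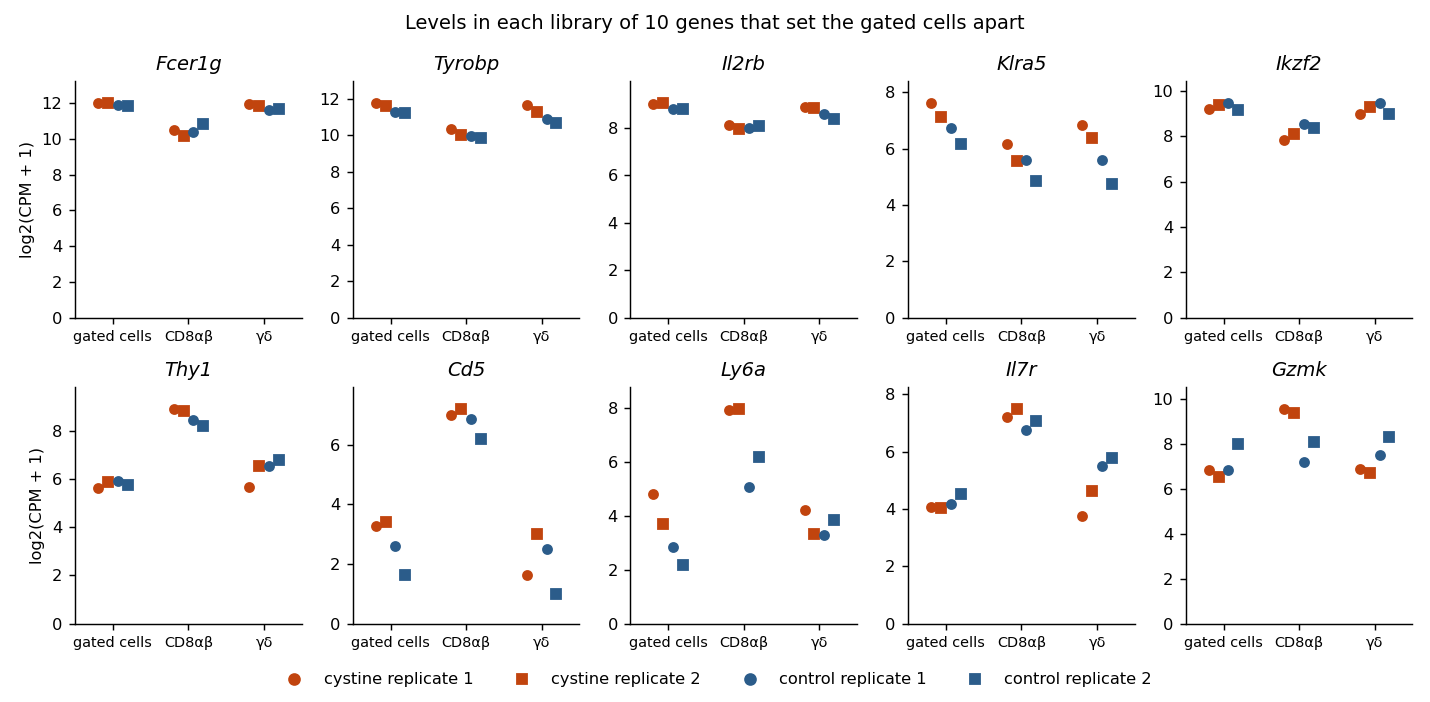
Levels of 10 genes in each library, as log2(CPM + 1) of unscaled UMIs summed over the cells of a gate (y axis), in gated cells, CD8αβ T cells and γδ T cells (x axis); each point is 1 library. Gated cells lay near γδ T cells and apart from CD8αβ T cells for Fcer1g, Tyrobp, Thy1, Cd5, Ly6a and Il7r.

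Cytotoxic genes differed in direction. Gzma, encoding granzyme A, was at 36265, 37298, 33626 and 45879 CPM in gated cells, against 18147, 22899.6, 23750.3 and 27064 CPM in CD8αβ T cells (log2 0.74, SE 0.05), and Gzmb rose by 0.62. Gzmk, granzyme K, was at 110.5, 88.2, 112 and 264 CPM in gated cells, against 756, 674, 149 and 288 CPM in CD8αβ T cells (log2 -1.77, SE 0.27, adjusted p = 2.57e-05). The gap was wide in the cystine libraries and narrow in the control libraries. The chemokine gene Ccl5 was higher by 0.28 and Xcl1, the lymphotactin gene, lower by 0.74 (log2 -0.74). Of 18 granule and chemokine genes, 7 were higher and 3 lower.

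Among regulators and receptors, Ikzf2, the transcription factor Helios, was at 555, 636, 702 and 594 CPM in gated cells, against 222, 275, 380.5 and 351 CPM in CD8αβ T cells (log2 1.05, SE 0.08). Lef1 and Tcf7, factors of naive and memory T cells, changed by -2.76 and -0.86, and Tbx21, encoding T-bet, did not pass (log2 0.06, adjusted p = 0.907). Of 26 transcription factors, 5 were higher and 5 lower. Il2rb was at 484, 512, 432 and 457 CPM in gated cells, against 269, 250.2, 259 and 282 CPM in CD8αβ T cells (log2 0.84, SE 0.08). Of 10 genes listed as inhibitory receptors, 6 were higher and 2 lower. Tigit rose by 1.09 and Entpd1, which encodes the surface enzyme CD39, by 1.39, while Pdcd1 (PD-1) had a log2 of -2.79. Of 16 homing and retention genes, 5 were higher and 8 lower: Itgae, the αE integrin that binds epithelial E-cadherin, rose by 0.33, and Itga4, the α4 integrin used to enter the gut, had a log2 of -1.84. Interferon response genes were lower in 8 of 11 cases and higher in 0 (median log2 -0.73), proliferation genes lower in 5 of 10 and higher in 0 (median -0.49), and cystine, glutathione and thioredoxin genes higher in 2 and lower in 3 of 23 (median 0.02).

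**Figure D3:**
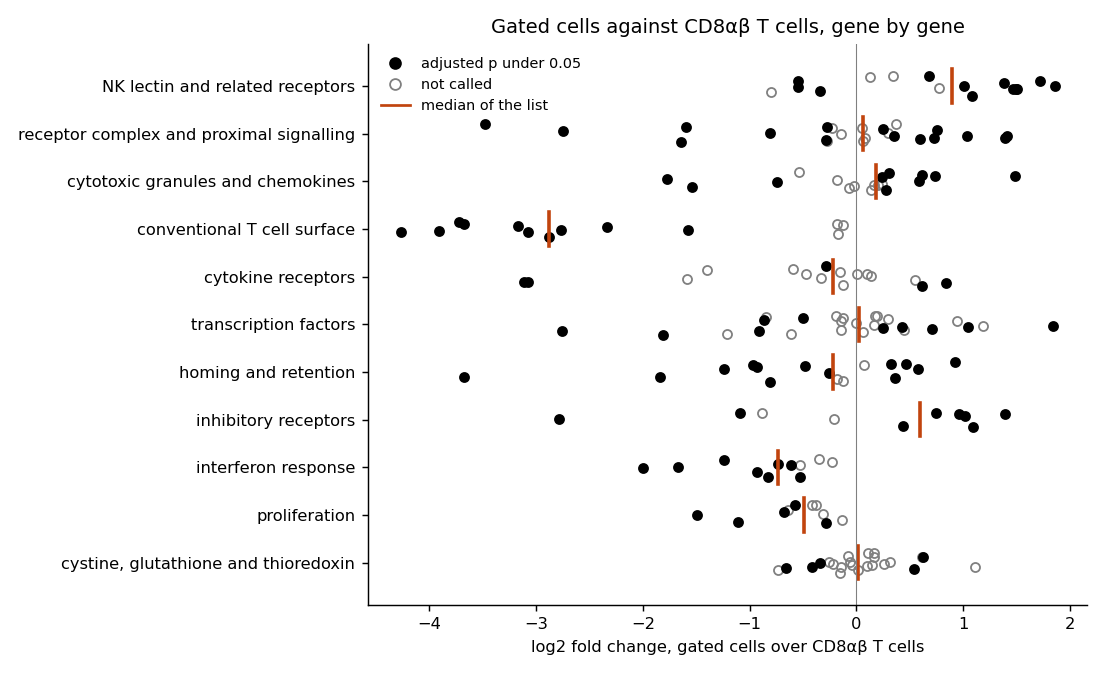
Log2 fold change of gated cells over CD8αβ T cells for the genes of 11 lists (y axis); filled points passed an adjusted p of 0.05 in edgeR's quasi-likelihood test, open points did not, and bars mark list medians. The conventional surface list has its median at -2.88, and Klra1 is drawn at the bound of 1.72.

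Transcripts of other cells were present in both gates, at levels that differed between libraries. Enterocyte markers summed to 123 and 548 CPM in gated cells of cystine samples and 281 and 54.8 CPM in those of control samples, against 146 and 302 CPM in CD8αβ T cells of cystine samples and 215 and 2085 CPM in those of control samples. Mast cell markers reached 455 CPM in gated cells of cystine replicate 2, against 55.3 CPM in its CD8αβ T cells, and monocyte markers 108 CPM in gated cells of control replicate 1, against 20.9 CPM in its CD8αβ T cells. Summed markers of B and plasma cells were at 989.6 and 481 CPM in gated cells of cystine samples and at 669 and 494 CPM in those of control samples, against 320 to 891 CPM in CD8αβ T cells. Regulatory and CD4 T cell markers were at 19.8 to 26.8 CPM in gated cells and 41.4 to 60.5 CPM in CD8αβ T cells. γδ T cell genes moved with the comparison: all 4 tested were higher in gated cells, and the summed level was 1507 and 1827 CPM in gated cells of cystine samples and 1978 and 2649 CPM in those of control samples, against 709 to 1269 CPM in CD8αβ T cells. Their part in the differences above was not tested. With only the gated cells that held a Trbv and no Tcrg-V or Trdv UMI, set against CD8αβ T cells restricted the same way, Fcer1g, Tyrobp, Il2rb, Klra5, Thy1 and Cd5 were called in the same direction.

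Against γδ T cells the differences were smaller. Of 10550 genes, 679 (6.44%) passed edgeR's quasi-likelihood test, 437 higher (4.14%) and 242 lower (2.29%). With only the gated cells that held a Trbv and no Tcrg-V or Trdv UMI, 16 named calls stayed and 5 did not pass. Cd160 changed direction there (log2 -0.15). The receptor segments follow from the gates: 19 of 21 Trbv segments were higher and 0 lower, and Trbv16 was at 221, 187, 173 and 176 CPM in gated cells, against 40.3, 16.8, 23.4 and 19.6 CPM in γδ T cells. Trdv5 and Tcrg-C1 were lower (log2 -1.0 and -0.60).

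All 5 Ly49 genes tested were higher than in γδ T cells. Klra7 was at 19.1, 19.99, 41.2 and 13.6 CPM in gated cells, against 7.11, 1.06, 6.54 and 3.40 CPM in γδ T cells (log2 2.40, SE 0.24, adjusted p = 9.96e-07). Klra6 was higher by 1.94 and Klra5 by 1.03 on the log2 scale, and Klra1 had a log2 of 3.73 from few UMIs. Every library had higher values in gated cells for Klra7, Klra6 and Klra5. Of 18 NK lectin and related receptors, 11 were higher and 0 lower, with a median log2 of 0.42. Klre1, which pairs with other lectins to form an NK receptor, rose by 1.32.

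Genes of both natural lineages differed by less. Fcer1g was at 4034, 4149.6, 3756 and 3987 CPM in gated cells, against 3822, 3476, 3054 and 3334 CPM in γδ T cells, which is a log2 of 0.22 (SE 0.03, adjusted p = 1.90e-05). Tyrobp rose by 0.39, Il2rb by 0.29, Cd7 by 0.25, Gzma by 0.24 and Ikzf2 by 0.16. Cd244a, the 2B4 receptor, did not pass (log2 -0.04, adjusted p = 0.64), nor did Cd5 (log2 0.81, adjusted p = 0.132). Thy1 was lower in gated cells (47.0, 57.9, 60.3 and 57.9 CPM, against 47.8, 87.1, 89.1 and 116 CPM in γδ T cells, log2 -0.62), as were Scin, an actin-severing protein gene (log2 -1.02), Il7r (log2 -0.91) and the receptor signalling gene Themis (log2 -0.87). Enterocyte transcripts were also lower, in 7 of 14 cases, and their summed level was 123 and 548 CPM in gated cells of cystine samples and 281 and 54.8 CPM in those of control samples, against 129 and 387 CPM in γδ T cells of cystine samples and 922 and 1726 CPM in those of control samples. In control replicate 1, a single barcode held 1584 of the 1753 Reg3b UMIs of γδ T cells in control replicate 1.

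The diet comparison asked whether the share or the transcripts of these cells changed with dietary cystine. Gated cells made up 7.46% (95% exact interval 7.10 to 7.84) and 8.18% (7.77 to 8.61) of filtered barcodes in cystine samples, and 9.02% (8.59 to 9.46) and 12.8% (12.2 to 13.3) in control samples. Both cystine values lay below both control values. The means were 7.82% ± 0.506 in cystine and 10.9% ± 2.65 in control samples (SD, n = 2 each), a difference of -3.07 percentage points, with a two-sided exact permutation p of 0.333, the smallest that 2 against 2 samples allow. Without control replicate 2 the difference was -1.20 points. Of barcodes with a CD3 UMI, gated cells made up 8.79% and 9.14% in cystine samples and 9.48% and 13.4% in control samples, a difference of -2.48 points, or -0.515 points without control replicate 2. B cells, which count among all barcodes, numbered 2121 and 850 in cystine samples and 306 and 297 in control samples. The intervals cover counting error only. After thinning every barcode to 1000 UMIs the means were 5.24% in cystine and 7.25% in control samples, leaving out 4906 and 3918 shallower barcodes in cystine samples and 4555 and 1840.0 in control samples. For gated cells with a Trbv and no Tcrg-V or Trdv UMI the direction was the opposite: 1.90% and 1.82% in cystine samples and 1.61% and 1.76% in control samples, a difference of 0.175 points (exact permutation p = 0.333).

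Relative to CD8αβ T cells the gated cells were also a smaller share on the cystine diet. They made up 84.5% and 82.4% of gated plus CD8αβ T cells in cystine samples, and 91.4% and 93.6% in control samples. The means were 83.5% ± 1.47 in cystine and 92.5% ± 1.53 in control samples (SD, n = 2 each), a difference of -9.05 points (two-sided exact permutation p = 0.333). This direction was the same in the Trbv-positive subset, at 75.5% and 67.4% in cystine samples and 83.4% and 86.5% in control samples.

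**Figure D4:**
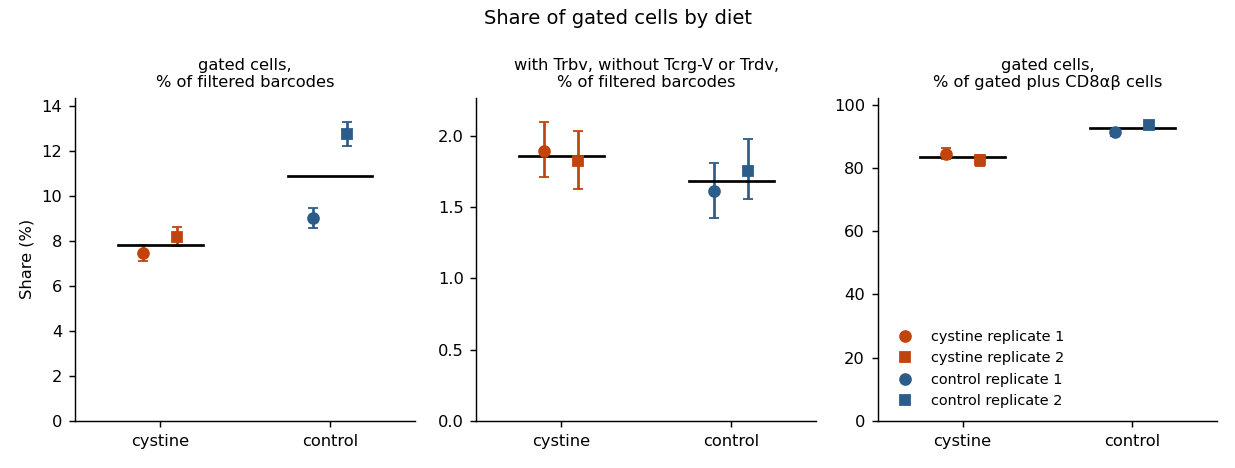
Share of gated cells in each library (y axis, %) by diet (x axis), of all filtered barcodes (left), of filtered barcodes for gated cells with Trbv and without Tcrg-V or Trdv (middle), and of gated plus CD8αβ T cells (right); bars on points are 95% exact binomial intervals and lines are means. The cystine points lie below the control points in the left and right panels and above them in the middle panel.

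Within the gated cells, 10 of 9881 genes (0.101%) differed between the diets in edgeR's quasi-likelihood test, all 10 higher in cystine samples and 0 lower, while 629 had an unadjusted p under 0.05. The number and the balance depended on single libraries: without control replicate 1 there were 121 higher and 158 lower, and without control replicate 2 there were 10 higher and 13 lower. With no low count filter 86 were higher and 54 lower. Most were secretory transcripts of Paneth cells, the crypt cells that release defensins and lysozyme. Defa24 was at 193 and 275 CPM in cystine samples, against 0.363 and 2.5 CPM in control samples (log2 7.14, SE 0.35, adjusted p = 3.58e-07). AY761184, a defensin gene, was at 47.2 and 68.8 CPM in cystine samples, against 0 and 0.501 CPM in control samples (log2 7.44). Lyz1, the Paneth lysozyme gene, was at 24.2 and 22.5 CPM in cystine samples and had 0 UMIs in both control samples, at least 55.4-fold higher when set against 3 counts over the control cells. Defa30 (log2 6.31), Defa22 (log2 5.87) and Gm14851 (log2 5.09) were called likewise, and the other 2 such calls were also secretory genes. Of 8 tested Paneth and goblet markers 6 were higher, with a median log2 of 6.09, or 5.83 with Lyz1 at its bound.

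These transcripts were not particular to the gated cells. In the B cells of the same libraries, which should lack them, AY761184 was at 70.0 and 206 CPM in cystine samples and had 0 UMIs in both control samples. Defa24 was spread over 284 gated cells of cystine replicate 1, at most 10 UMIs in 1 cell, and over 69 of cystine replicate 2, at most 52 in 1 cell. In γδ T cells Defa24 was at 266 and 489 CPM in cystine samples, against 0.256 and 1.33 CPM in control samples. The summed Paneth and goblet markers in gated cells were at 407 and 513 CPM in cystine samples, against 24.5 and 36.4 CPM in control samples. Whether they came from free RNA, from attached cells or from the gated cells was not tested.

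The other called genes were Ptpn5 and Srm. Ptpn5, a tyrosine phosphatase that acts on MAP kinases, was at 57.9 and 59.2 CPM in cystine samples, against 28.7 and 19.5 CPM in control samples (log2 1.30, SE 0.20, adjusted p = 0.0273). Srm, spermidine synthase, was at 26.9 and 18.0 CPM in cystine samples, against 7.26 and 3.50 CPM in control samples (log2 2.11, SE 0.35, adjusted p = 0.0420). Neither gene's groups overlapped, and Srm did not pass without control replicate 2 (log2 1.61, adjusted p = 0.0768). In γδ T cells, Srm was at 26.9 and 13 CPM in cystine samples, against 6.14 and 3.46 CPM in control samples (log2 2.02, adjusted p = 0.0380), and Ptpn5 was at 51.0 and 48.2 CPM, against 34.5 and 20.5 CPM (log2 0.84, adjusted p = 0.214). Srm was also seen in B cells, at 45.6 and 40.0 CPM in cystine samples and 38.5 and 2.27 CPM in control samples.

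**Figure D5:**
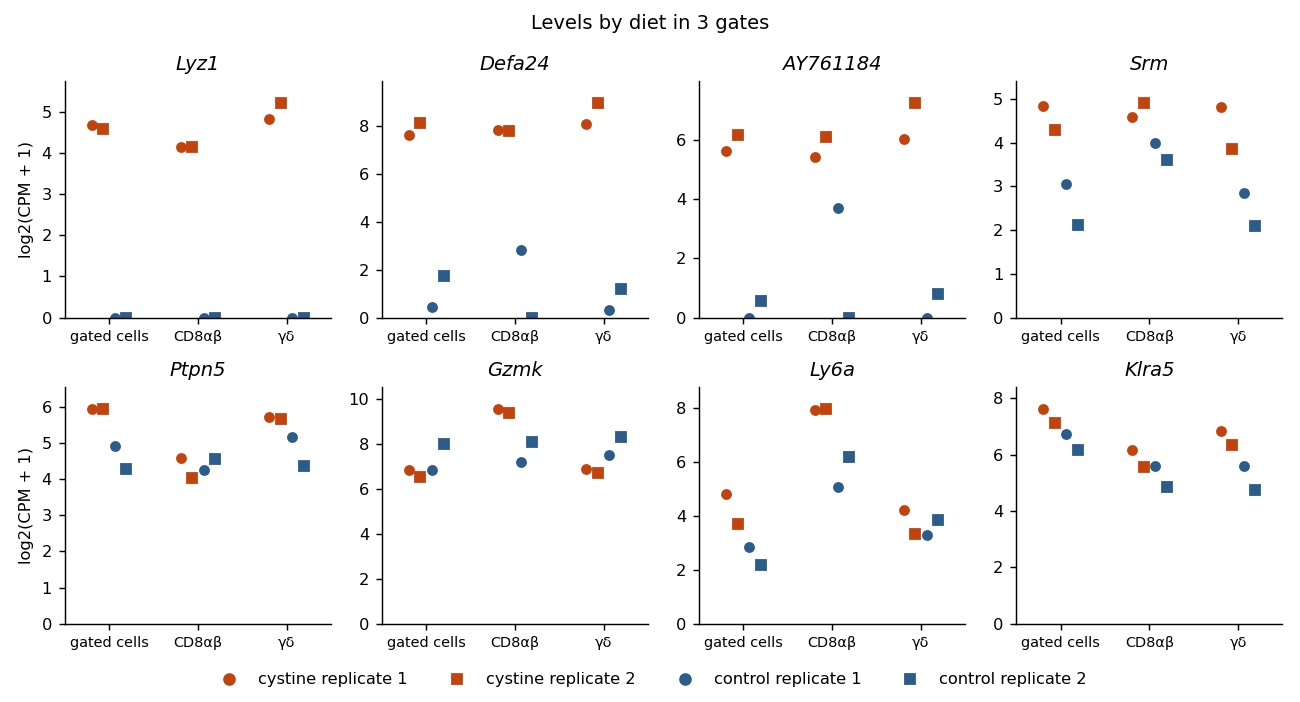
Levels of 8 genes in each library, as log2(CPM + 1) of unscaled summed UMIs (y axis), in 3 gates (x axis), with cystine libraries in orange and control libraries in blue; each point is 1 library. Lyz1, Defa24 and AY761184 were high in the cystine libraries of all 3 gates, and Gzmk and Ly6a were higher in cystine libraries in CD8αβ T cells.

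The 3 natural cell markers that the gate does not use did not pass. Fcer1g was at 3979.6 and 4094 CPM in cystine samples, against 3706 and 3892 CPM in control samples (log2 0.09, adjusted p = 0.914), and Il2rb had a log2 of 0.17 (adjusted p = 0.875). Klra5 was at 193 and 136 CPM in cystine samples, against 105 and 75.1 CPM in control samples; the groups did not overlap, but the log2 of 0.87 did not pass (SE 0.19, adjusted p = 0.249). The diet effect called 5 of 5445 genes in CD8αβ T cells (0.0918%; 0.0551% higher and 0.0367% lower) and 30 of 10415 in γδ T cells (0.288%; 0.134% higher). In γδ T cells the Klra5 difference did pass (112 and 78.8 CPM in cystine samples, against 47.3 and 27.4 CPM in control samples, log2 1.34, adjusted p = 0.0266). The difference between these diet effects did not pass: the interaction test called 0 of the 3 natural cell markers tested and 0 of 18 NK lectins. In simulated counts with a dispersion of 0.02, this test found 31% of 2-fold differences, so smaller differences could be missed. Ly6a was at 26.5 and 11.8 CPM in cystine samples, against 6.17 and 3.75 CPM in control samples (log2 1.97, SE 0.41, adjusted p = 0.173). Gzma (log2 -0.11), Ccl5 (log2 -0.38), Thy1 (log2 -0.16) and Cd5 (log2 1.34) did not pass either. Some named genes depended on control replicate 1: uncalled with all 4 samples, they were called once it was left out. Without it, which leaves 1 control sample, the log2 values were 1.11 for Klra5, 2.31 for Ly6a and 0.35 for Tyrobp. They were -0.33 for Gzma, -0.54 for Ccl5, -1.43 for Gzmk and -0.30 for Cd7.

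With all 4 samples, no gene of the lists for natural cells, conventional surface, receptor signalling, NK lectins or granules was called by diet. The same held for cytokine receptors, transcription factors, homing and inhibitory receptors. Cystine, glutathione and thioredoxin genes had 0 of 23 calls (median log2 -0.01 beside 0.01 over all genes), coenzyme A synthesis 0 of 7 and interferon response 0 of 10. Il22, the cytokine the series title names, had 1 UMI in 1 gated cell of cystine replicate 2 and 1 UMI in 1 gated cell of control replicate 1. A count of 0 in the other libraries allows a share of cells with a captured Il22 UMI of up to 0.208% in cystine replicate 1 and up to 0.153% in control replicate 2, which does not limit the share of cells that express it, and no difference in Il22 was detectable at this depth.

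The diet effect in gated cells differed from that in CD8αβ T cells for 31 of 9413 genes (0.329%), 17 higher (0.181%) and 14 lower, and for 4 genes by DESeq2's Wald test. Gzmk had the smallest adjusted p of the genes named. It was at 744 and 659 CPM in CD8αβ T cells of cystine samples, against 147 and 282 CPM in those of control samples (log2 1.70, adjusted p = 0.00632), and in gated cells at 113 and 90.0 CPM in cystine samples, against 114 and 269 CPM in control samples (log2 -0.93, adjusted p = 0.552). In the CD8αβ gate, γ or δ segments were in 37.5% and 43.9% of its cells in cystine samples and in 55.6% and 62.7% in control samples, and Cd7 fell there (log2 -0.74, adjusted p = 0.00632). Their part in the Gzmk result was not tested. The difference of the diet effects, gated minus CD8αβ, was -2.63 on the log2 scale (SE 0.16, edgeR's quasi-likelihood interaction test, adjusted p = 6.57e-12), and it was called under all 12 alternatives tried. Without control replicate 2, whose 269 CPM is the highest Gzmk value of the gated cells, the difference was -2.45. Against γδ T cells 58 of 10550 genes (0.55%) differed in the diet effect, 45 higher (0.427%) and 13 lower. DESeq2's Wald test called 0 of them (39 at an unadjusted p under 0.05), and without the barcodes with the most UMIs 13 were called, 5 higher and 8 lower. Both comparisons share the gated cells, so their calls are not independent.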

How the data were processed

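The values are UMI counts per gene and barcode as deposited by the authors, 1 matrix a sample, for 32285 genes. Build GRCm39, Seurat 4.0.1 and Cell Ranger 3.1.0 are listed, with no roles, in the submitters' processing notes, whereas the file headers give Cell Ranger 7.0.1; how barcodes were called is not given in the sources used here, and 18000 cells were loaded per sample per the labels. Library totals ran from 27229695 to 31301936 UMIs, and no doublet caller was run. UMIs were summed per sample and gate, and tested with edgeR 4.0.16 (R 4.3.3, limma 3.58.1; filterByExpr, TMM, quasi-likelihood test, Benjamini-Hochberg adjustment, threshold 0.05), leaving out the 12 genes of the gate; gates of the same sample were compared with sample as a block, and differences of the diet effect as an interaction. Shares were compared by exact permutation in SciPy 1.17.1, with exact (Clopper-Pearson) 95% intervals. Each SE is the size of the log2 fold change divided by the square root of the test's F statistic, not a separately fitted standard error. The fits were tested on simulated data. DESeq2 1.42.0, other filters, depths and gates and leaving out each replicate were the alternatives.

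Members and the 26 gene lists were chosen with earlier results of these data known. Genes are named as up to 12 each way by size of change past the threshold with at least 20 CPM in 1 group and no overlap or the same direction in all samples (5 each way for interactions), up to 5 that pass in each list, and a set of always named genes. Of the first 2 kinds, only those that bear on the cells' identity, function or diet response are printed. Levels of single gate genes are not reported as results. Sequences are RefSeq's, build GRCm38.p6, which differs from the build of the files, so no coordinate of the files was used.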

Additional observations from a re-analysis of the deposited data

Results flagged for a closer look

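The diet effect in the gated cells differed by test from that in another gate for 20 named results, each given as the log2 diet effect in gated cells minus that in the other gate. Minus CD8αβ T cells, T cell genes were lower for Gzmk (-2.63), the chemokine receptor gene Cxcr6 (-1.24), the chemokine gene Ccl4 (-1.12), the chromatin remodeller Chd3 (-1.03) and Lat (-1.01). Epithelial genes were higher: Dmbt1 (9.21), Lgals2 (7.54), Lypd8 (7.24), Krt8 (6.67) and Cldn7 (6.20). In CD8αβ T cells of control replicate 2, 1 barcode held all 33 Dmbt1 UMIs, and 1 barcode held 156 of 157 Lgals2 UMIs.

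Minus γδ T cells, the epithelial genes Reg3g (5.11), Lypd8 (4.85), Reg3b (4.43), Prap1 (4.10) and Krt8 (4.08) were higher. In γδ T cells of the control samples, 1 barcode held 1584 of 1753 Reg3b UMIs in replicate 1 and 1 held 1357 of 1867 in replicate 2. Lower were Ifitm3 (-2.36), the receptor segments Trbv1 (-1.13) and Trav15-2-dv6-2 (-0.91), and the antigen presentation genes H2-Eb1 (-0.76) and Cd74 (-0.69). For Lgals2, Reg3g, Reg3b and Prap1, values without the 5% of barcodes with the most UMIs are given under the dependence on processing. Without those barcodes, 5 of the 10 results against CD8αβ T cells stayed called in the same direction and 1 turned. The others had too few counts to be tested. Of the 10 against γδ T cells, 2 stayed called, 3 kept their direction but did not pass, and 5 turned. The part of single barcodes in the epithelial results was not tested. By DESeq2's Wald test, 3 of the 10 results against CD8αβ T cells (Dmbt1, Gzmk and Lat) and 0 of the 10 against γδ T cells were called. Without control replicate 2, against CD8αβ T cells Lgals2 turned to -2.47, and Dmbt1 (5.91), Lypd8 (2.64), Krt8 (1.74), Cldn7 (2.76) and Chd3 (-0.99) did not pass. Against γδ T cells, Krt8 (1.98) and Trav15-2-dv6-2 (-0.67) did not pass without it.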

How the results depend on the processing

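The share of gated cells changed direction, to 0.175 points, in the Trbv-positive subset chosen after seeing the data. Of the 10 genes called by diet, 3 were also called in that subset, where 6648 genes were tested. The 10 diet calls became 140.0 with no low count filter, 5 with cells of at least 2000 UMIs, 5 in that subset, 24 with Fcer1g required, and 23 to 279 when a replicate was left out (51 without cystine replicate 1, 71 without cystine replicate 2, 279 without control replicate 1, 23 without control replicate 2). With the replicate block they became 33 (22 higher, 11 lower). The labels do not say that same-numbered samples are paired. Their deviations correlated at 0.0199 over 9881 genes, which cannot exclude a pairing that acts on part of the genes. In the subset, uncalled diet changes turned for Fcer1g (-0.04), Il2rb (-0.07), Tyrobp (-0.07) and Thy1 (1.0), and Gzma ranged from -0.33 to 0.14 without a replicate, passing at -0.33 (adjusted p = 0.00379) without control replicate 1.

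Against CD8αβ T cells the 932 calls became 452 by DESeq2's Wald test, 379 at 2000 UMIs and 629 to 914 without a replicate; Tbx21 turned to -0.08 at 2000 UMIs and ranged from -0.08 to 0.22. Against γδ T cells the 679 calls became 156 (Wald), 339 with a stricter barcode filter, 160.0 at 2000 UMIs, 148 in the subset and 283 to 542 without a replicate, lowest without control replicate 1; Cd244a turned to 0.02 at 2000 UMIs and Cd160 to -0.15 in the subset. The 31 interaction calls against CD8αβ became 4 (Wald), 51 (no filter), 18 (subset) and 26 to 72 without a replicate; Lgals2 turned to -1.23 without the barcodes with the most UMIs and ranged from -2.47 to 8.17. The 58 against γδ became 0 by DESeq2's Wald test (39 at an unadjusted p under 0.05), 13 without the barcodes with the most UMIs, 23 (subset) and 31 to 80 without a replicate. Without those barcodes Reg3g turned to -0.09, Reg3b to -0.60, Prap1 to -0.26, Ifitm3 to 1.39 and Cd74 to 0.05; in the subset H2-Eb1 turned to 0.85 and Cd74 to 0.46. The causes were not tested. With 2 samples a diet, shares could not pass a permutation test, and low counts limit single Ly49 genes.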

Other observations

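The mast cell protease genes Mcpt1 and Mcpt2 were carried largely by 1 barcode. Mcpt1 had 717 UMIs in 44 gated cells of cystine replicate 2, with 621 in 1 cell, against 23 UMIs in cystine replicate 1 and 25 and 31 in control replicates 1 and 2. Mcpt2 had 397 UMIs in cystine replicate 2, with 363 in 1 cell, against 6 in cystine replicate 1 and 11 and 16 in control replicates 1 and 2.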
